A study of Sus scrofa with 3 samples.

Results

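The family of miR-103 and miR-107 was measured in the pig, in psoas major, the tenderloin muscle along the lumbar spine. Its members were taken as every porcine mature miRNA name that begins ssc-miR-103 or ssc-miR-107 in the 3 deposited libraries, with all of their hairpin rows. These were 2 of 276 porcine mature names, ssc-miR-103 and ssc-miR-107. They filled 3 of 1302 hairpin rows at 63 d, 3 of 1648 at 98 d and 3 of 1511 at 161 d, and no row of either name was dropped by a filter on low values. Small RNA was sequenced from fattening pigs aged 63, 98 or 161 d, which were castrated males of a Landrace × Large White × Duroc cross. The labels name no further treatment. Each library held the combined RNA of 6 pigs of 1 age, without a replicate, so that the variation between pigs was not measured. Every test below thus compares the reads of 2 libraries and covers counting error only. The question put to the series was which miRNAs change while the fibre type of the muscle shifts during growth.

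miR-103 and miR-107 are encoded inside introns of the pantothenate kinase genes, whose enzymes make coenzyme A. Both begin with the same bases and are thus expected to recognise largely the same messenger RNAs, since a miRNA finds its targets mainly through its seed, bases 2 to 8. In liver and fat they are known as regulators of insulin sensitivity, and by their first bases they belong to a larger group with miR-15, miR-16, miR-195, miR-424, miR-497 and miR-503.

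The mature sequences are shown because everything that can be told of the members apart rests on 1 base. Seeds are in capitals in the first pair of lines, and the differing base is in capitals in the second.
ssc-miR-103: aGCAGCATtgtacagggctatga
ssc-miR-107: aGCAGCATtgtacagggctatca
ssc-miR-103, differing base: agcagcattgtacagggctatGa
ssc-miR-107, differing base: agcagcattgtacagggctatCa
Both were 23 nt long. They shared the seed gcagcat and their first 21 bases, and differed by G22C, counted from 1 at the 5′ end with the base of miR-103 first. A read that ends at or before base 21 therefore fits both miRNAs equally. Among the 276 porcine names, 9 held AGCAGC within their first 9 bases on the strand of the miRNA, and only miR-103 and miR-107 held it from base 1 (2 of 9). In the other 7 it began at base 2.

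The hairpins are shown to locate the mature miRNA, in capitals, and the bases around it. The files give the coordinates, and their genome build is not named in the sources used here. The chromosomes follow from the sequence accessions in the files. In the RefSeq annotation of Sscrofa11.1 the 3 hairpins, looked up by name, lie within pantothenate kinase genes on these same chromosomes. The coordinates printed here are those of the files and were not placed in that annotation. ssc-mir-103-1 (chr16:59912617-59912698, + strand, 82 nt) lies in PANK3, ssc-mir-103-2 (chr17:36149786-36149870, - strand, 85 nt) in PANK2 and ssc-mir-107 (chr14:110407095-110407181, - strand, 87 nt) in PANK1.
ssc-mir-103-1: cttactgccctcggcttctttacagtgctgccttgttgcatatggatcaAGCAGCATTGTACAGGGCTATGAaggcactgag
ssc-mir-103-2: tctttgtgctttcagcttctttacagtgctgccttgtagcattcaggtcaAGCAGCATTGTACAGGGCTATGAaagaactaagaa
ssc-mir-107: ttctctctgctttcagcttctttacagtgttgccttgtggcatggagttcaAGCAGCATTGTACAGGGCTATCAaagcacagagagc
The mature miRNA lay on the 3′ arm of each. The hairpins of miR-103 were identical over 24 bases from the start of the mature miRNA and over the 3 bases before it, so that a complete miR-103 read cannot be assigned to either gene. Over their whole length they matched at 81.2% of aligned positions, and each matched ssc-mir-107 at 78.7% (ssc-mir-103-1) and 83.9% (ssc-mir-103-2). The predicted folding energies were -32, -31.9 and -33.3 kcal per mol for ssc-mir-103-1, ssc-mir-103-2 and ssc-mir-107.

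The deposited files divide a read that fits several hairpins between them. At 63 d the divided reads of all isoforms were 1343 at ssc-mir-103-1, 1349 at ssc-mir-103-2 and 585 at ssc-mir-107. At 98 d they were 1805.8, 1817.8 and 1024.3, and at 161 d 1626.7, 1636.7 and 924.7. The hairpins of miR-103 thus had nearly equal values in every library, which follows from the division and holds no information on the activity of either gene. Each hairpin's total of undivided reads is given as well (2835, 2841 and 883 at 63 d), and from the totals and divided values together the reads were sorted by the hairpins they fit. The divided values of the 3 hairpins added up exactly to 3277, 4648 and 4188 reads of the family at 63, 98 and 161 d.

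Most reads of the family fitted miR-103 and not miR-107. From the youngest to the oldest library they numbered 2394, 3179 and 2838, or 73.1, 68.4 and 67.8% of the family. Of these, 2388, 3167 and 2826 fitted both miR-103 hairpins. Only 6, 12 and 11 reads were particular to ssc-mir-103-2, and 0, 0 and 1 to ssc-mir-103-1. The count of 0 allows up to 3 reads of that gene alone per library.

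Reads that fitted miR-107 alone were fewer, with 436, 802 and 712 in the same order. A further 447, 667 and 638 reads fitted all 3 hairpins. This ambiguous part made up 13.6% of the family at 63 d, with a 95% Wilson interval of 12.5 to 14.9%. The share was 14.4% (13.4 to 15.4) in the library of 98 d and 15.2% (14.2 to 16.4) in that of 161 d. It weighed more for miR-107 than for miR-103. Of the reads that could be miR-107, 50.6, 45.4 and 47.3% also fitted miR-103, against 15.7, 17.3 and 18.4% of the reads that could be miR-103.

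**Figure D1:**
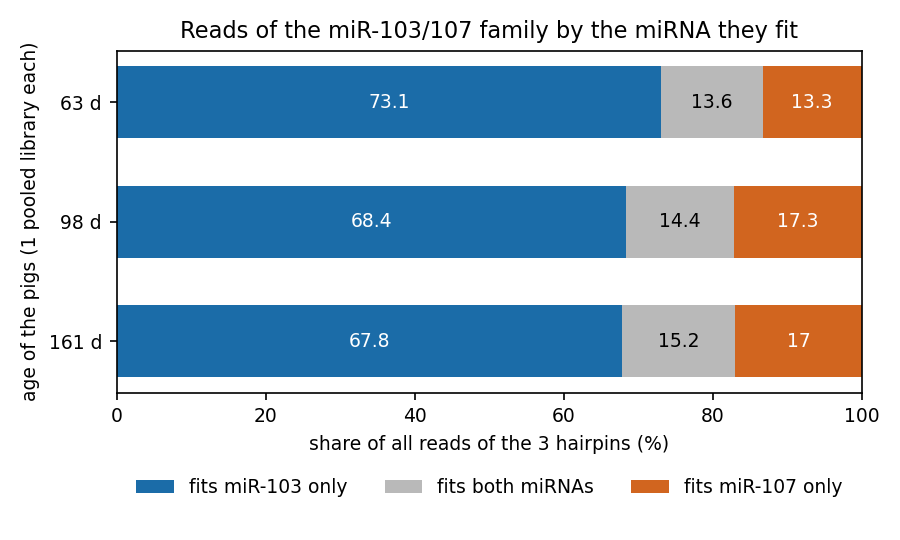
Share of the reads of the 3 hairpins (%, x axis) that fitted miR-103 only (blue), both miRNAs (grey) or miR-107 only (orange), in the pooled library of each age. The blue part was 73.1% at 63 d and 68.4 and 67.8% at the later ages, and the orange part 13.3, 17.3 and 17%.

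The most abundant read of each miRNA was also given. For miR-103 it was the complete 23 nt miRNA in every library, with 1650, 2094 and 1884 copies at 63, 98 and 161 d. For miR-107 it changed with the library. At 63 d it was 21 nt long, 292 copies, and at 98 and 161 d 22 nt long, with 459 and 431 copies. These reads are shown because the shorter one lacks the distinguishing base.
miR-107, 63 d: agcagcattgtacagggctat
miR-107, 98 and 161 d: agcagcattgtacagggctatc
The read named for miR-107 at 63 d is therefore a read that fits miR-103 just as well. Most miRNAs kept the length of their most abundant read. Among 140 porcine miRNAs with at least 100 reads in every library, the most abundant read was longer at 98 d than at 63 d in 5 and shorter in 6. At 161 d it was longer than at 63 d in 6 and shorter in 15.

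Levels were put on the authors' scale by multiplying the divided reads by 1.344 (63 d), 0.75 (98 d) or 1.006 (161 d), and are called normalised reads. Summed over its hairpins, miR-103 started at 3618 normalised reads in the youngest library (95% Wilson interval 3484 to 3757). It then had 2718 (2631 to 2808) in that of 98 d and 3281 (3170 to 3395) in the oldest. At the hairpin used for the tests, ssc-mir-103-2, it had 1813, 1363 and 1646. The levels of miR-107 were 786.2 (725.1 to 852.6), 768.3 (722.4 to 816.6) and 929.8 (872.1 to 992) normalised reads, in order of age. miR-103 was highest at 63 d and lowest at 98 d, and miR-107 was highest at 161 d, with overlapping intervals at 63 and 98 d. The interval of miR-103 did not overlap that of miR-107 in any library.

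The order of the ages depended on the scale. As counts per 1e6 reads listed in each file (CPM), miR-103 summed over its hairpins had 1838, 1499 and 1455, in order of age. On this scale miR-107 had 399.4, 423.6 and 412.3, and its 3 intervals overlapped. In all, 1464699 reads were listed for 63 d, 2418187 for 98 d and 2242716 for 161 d, so that 3 reads, the limit of a count of 0, were 4.03, 2.25 and 3.02 normalised reads. Each member was measured far above it.

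**Figure D2:**
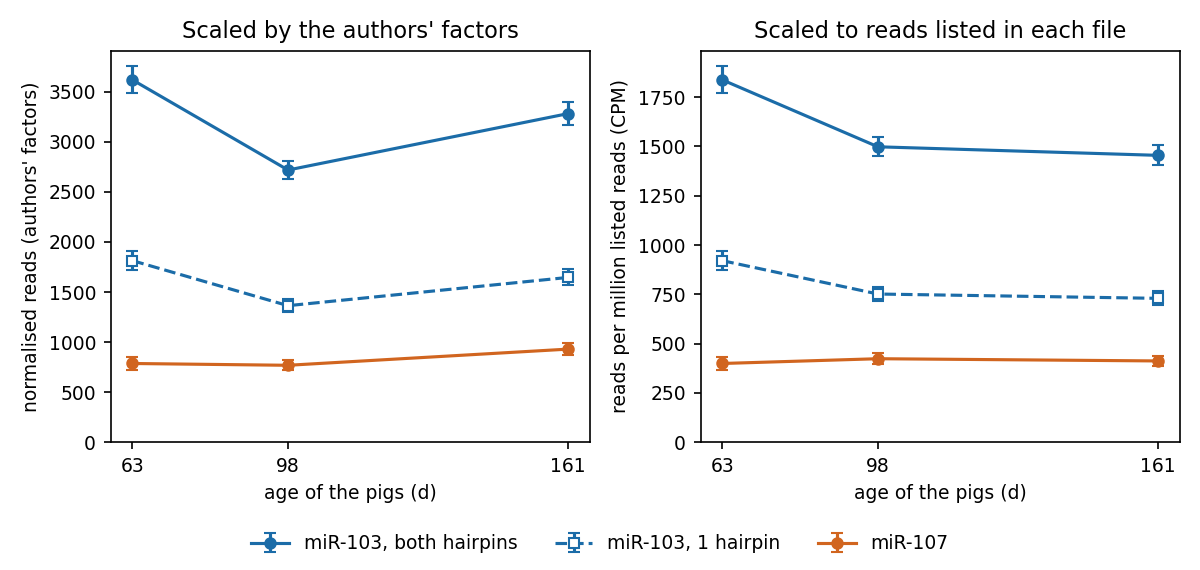
Level of miR-103 (blue) and miR-107 (orange) against age (d), as normalised reads (left) and as CPM (right), both on axes from 0. Bars are 95% Wilson intervals of the counts in 1 library per age. miR-103 went from 2718 to 3281 normalised reads between 98 and 161 d, but from 1499 to 1455 CPM, while miR-107 kept between 399.4 and 423.6 CPM.

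Counted at 1 hairpin, miR-103 ranked 50 of 276 porcine names at 63 d, 61 at 98 d and 60 at 161 d. Ranked with all hairpins summed for every name, its places were 39, 46 and 44. miR-107 ranked 77, 82 and 75 counted at 1 hairpin, and 80, 86 and 78 with hairpins summed for every name. The neighbours of miR-103 depended on this choice, since 1 hairpin holds only part of its reads. Counted at 1 hairpin, it stood at 63 d below ssc-miR-140-3p, with 2007 normalised reads (p = 0.0073, exact binomial test). Below it was ssc-miR-24-3p, with 1776 (p = 0.61, same exact test). In the other libraries its neighbours at 1 hairpin were ssc-miR-100 above and ssc-miR-221-3p or ssc-miR-145-5p below, with exact binomial p of 0.099 to 0.78. With hairpins summed, miR-103 stood between ssc-miR-125b and ssc-miR-24-3p at 63 d. It then stood between ssc-miR-199b-5p and ssc-miR-151-3p at 98 d, and between ssc-miR-320 and ssc-miR-98 at 161 d. None of these summed neighbours differed from it beyond counting error (exact binomial p of 0.21 to 0.88). At 1 hairpin the neighbours of miR-107 were ssc-miR-29a and ssc-miR-374a-3p at 63 d, ssc-miR-150 and ssc-miR-365-3p at 98 d, and ssc-miR-15a and ssc-miR-7 at 161 d. None of these 6 differed from miR-107 beyond counting error (exact binomial p of 0.50 to 0.95). With hairpins summed, the name below miR-107 became ssc-miR-195 at 98 d and ssc-let-7d-3p at 161 d (exact binomial p of 0.84 and 0.54).

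The plainest result was the ratio of the members within a library, since it needs no scaling factor. Among reads that fitted 1 member alone, there were 5.49 reads of miR-103 per read of miR-107 in the library of 63 d, and 3.96 and 3.99 in those of 98 and 161 d. As a share of these reads, miR-107 made up 15.4% in the youngest library (95% Wilson interval 14.1 to 16.8), then 20.2% (18.9 to 21.4) and in the oldest 20.1% (18.8 to 21.4). Among these reads the interval of the 63 d library did not overlap the others, and those of 98 and 161 d overlapped. The share leaves out the ambiguous reads, the 21 nt read of miR-107 at 63 d among them. Reads that fitted 1 member alone were counted only after the data were seen. The tests of their ratio assume no variation between libraries. Between 63 and 98 d the ratio changed 0.72-fold (95% interval 0.63 to 0.82, Fisher's exact test, adjusted p = 1.63e-06 over 3 pairs), and between 63 and 161 d 0.73-fold (0.64 to 0.83, Fisher's exact test, adjusted p = 2.45e-06). Between 98 and 161 d it was 1.01-fold (0.90 to 1.13, Fisher's exact test, adjusted p = 0.93).

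The same ratio from the divided reads at 1 hairpin was 2.31 in the youngest library and 1.77 in both others. It changed 0.77-fold between 63 and 98 d (0.68 to 0.87, Fisher's exact test, adjusted p = 5.81e-05). These smaller ratios arise because the files share each ambiguous read equally between the 3 hairpins and split the reads of miR-103 over its pair of hairpins. With both hairpins summed the ratio was 4.60, 3.54 and 3.53, and with copies of the most abundant read it was 5.65, 4.56 and 4.37. Under each of these counts the 63 d library had the highest ratio. The last of them sets the complete miR-103 against a miR-107 read of 21 nt at 63 d and of 22 nt later. The short read of miR-107 enters all of these counts except the reads that fitted 1 member alone.

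The division also sets how much miR-107 a file shows. The divided value was 585, 1024.3 and 924.7 reads at 63, 98 and 161 d. Its lowest possible value, with every ambiguous read given to miR-103, was 436, 802 and 712, and its highest, with every one given to miR-107, was 883, 1469 and 1350. As a share of the family, miR-107 could thus lie between 13.3 and 26.9% at 63 d, 17.3 and 31.6% at 98 d, and 17.0 and 32.2% at 161 d. These ranges overlap, so that the higher share of miR-107 at the later ages holds for the reads that can be told apart and for the divisions described here, and not for every division of the ambiguous reads. Dividing the ambiguous reads as the unambiguous ones were divided gave 504.9, 936.4 and 840. Ambiguous reads made up 25.5% of the divided value at 63 d, 21.7% at 98 d and 23.0% at 161 d.

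From 63 to 98 d, normalised reads of miR-103 fell to 0.75-fold at 1 hairpin (95% interval 0.70 to 0.81, exact binomial test, adjusted p = 5.27e-14 over 1502 names). Its fold change was 0.82 on the CPM scale (0.76 to 0.88). miR-107 was at 0.98-fold (0.88 to 1.08, exact binomial test, adjusted p = 0.84), and at 1.06-fold on the CPM scale (0.96 to 1.18). So 1 of 2 members passed the test, as a lower value, against 24.8% of the 423 names with at least 10 reads in each library that passed as lower. Calls in either direction made up 53.7% of these names, and 41.3 and 60.1% in the pairs of 98 and 161 d and of 63 and 161 d, so that a call by this test is common. Scaled to clean reads, the direction of both members turned, to 1.20-fold for miR-103 and 1.56-fold for miR-107.

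From 98 to 161 d, both members were higher in normalised reads, by about the same amount, but not in CPM. miR-103 was at 1.21-fold (1.13 to 1.29, exact binomial test, adjusted p = 5.06e-07) and miR-107 at 1.21-fold (1.11 to 1.33, exact binomial test, adjusted p = 0.00027). Among 443 names, 20.1% passed as higher. The direction turned on the CPM scale, where the values were 0.97-fold for each member, with intervals that held 1 (0.91 to 1.04 for miR-103, 0.89 to 1.07 for miR-107). It turned as well when scaled to clean reads, to 0.81-fold for each. The increase was kept with the TMM factors of edgeR (1.14-fold for miR-103 and 1.15-fold for miR-107). It was also kept with the median of ratios of DESeq2 (1.2-fold for each).

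From 63 to 161 d the members went in opposite directions in normalised reads. miR-103 was at 0.91-fold (0.84 to 0.98, exact binomial test, adjusted p = 0.037 over 1396 names) and miR-107 at 1.18-fold (1.07 to 1.31, exact binomial test, adjusted p = 0.0075). Among 411 names, 27.5% passed as lower and 32.6% as higher. On the CPM scale the values were 0.79-fold (0.74 to 0.85) and 1.03-fold (0.93 to 1.15). The call of miR-107 was lost there (exact binomial test, adjusted p = 0.73), with the TMM factors of edgeR (1.12-fold, adjusted p = 0.11) and with the median of ratios of DESeq2 (adjusted p = 0.099). These 3 comparisons share libraries, and the last is the product of the others. With a coefficient of variation of 0.2 assumed between pooled libraries of the same age, neither member passed in any pair (edgeR's exact test, adjusted p of 0.84 to 1). No member reached a fold change of 2 or 0.5 in any of them, limits that 13.7, 9.71 and 19.7% of the names passed between 63 and 98 d, 98 and 161 d, and 63 and 161 d.

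**Figure D3:**
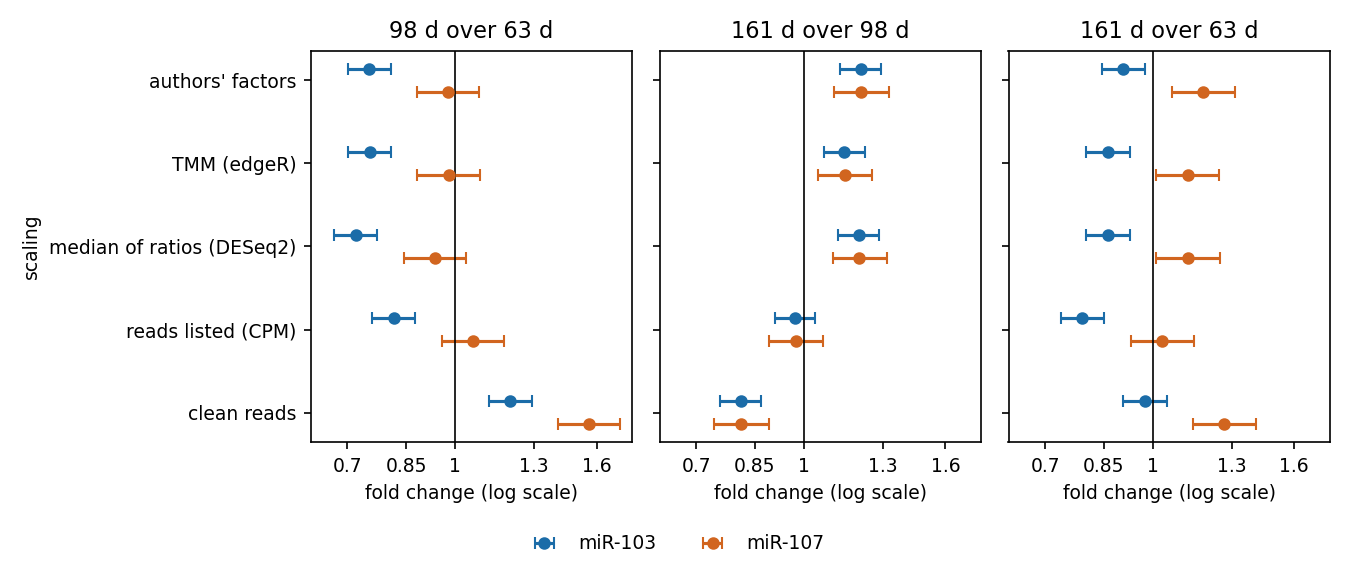
Fold change of miR-103 (blue) and miR-107 (orange) in each pair of ages, on a log axis, under 5 scalings of the same reads. Bars are 95% intervals from the exact binomial test on 1 library per age, and the line marks 1. Blue lies left of orange in the outer panels, at a distance that no scaling can change because each moves both members alike. The position of both against the line moves with the scaling, as from 1.21-fold to 0.97-fold (CPM) in the middle panel.

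With each read counted once, the family as a whole had 4404, 3486 and 4211 normalised reads in order of age. It was at 0.79-fold between 63 and 98 d (0.76 to 0.83) and at 1.21-fold between 98 and 161 d (1.16 to 1.26), with 0.96-fold between 63 and 161 d (0.91 to 1.00). In CPM it went from 2237 to 1922 and 1867. The change on that scale was 0.97-fold between 98 and 161 d (0.93 to 1.01) and 0.83-fold between 63 and 161 d (0.80 to 0.87, exact binomial test, p = 1.24e-14). The increase of the family between 98 and 161 d was seen with the authors' factors and not with CPM. The other scalings were computed for the members and not for the family.

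The positions of the members among all miRNAs do not depend on the scaling. The median log2 fold change of all names from 63 to 98 d was 0.06 with the authors' factors, 0.18 in CPM and 0.74 on clean reads. For 98 to 161 d it was 0.05, -0.27 and -0.53. Relative to this median the log2 fold change of miR-103 was -0.47 from 63 to 98 d, 0.22 from 98 to 161 d and -0.16 from 63 to 161 d. For miR-107 it was -0.09, 0.23 and 0.22. Among porcine names with at least 10 reads in each library, 51 of 221 lay below miR-103 from 63 to 98 d and 93 below miR-107. In the next pair, 162 and 163 of 228 lay below them. The members differed by 0.38 on the log2 scale in the first pair, when the interquartile range of porcine names was -0.35 to 0.60.

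**Figure D4:**
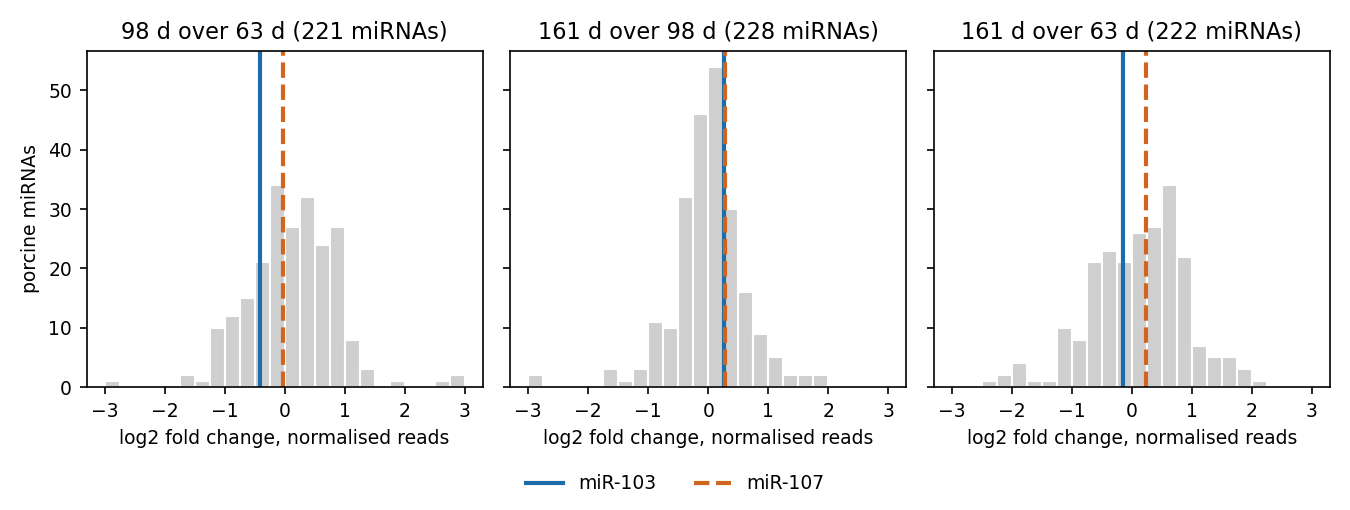
Number of porcine miRNAs (y axis) by log2 fold change of normalised reads (x axis, values beyond ±3 drawn in the end bins) in each pair of ages, among those with at least 10 reads in each library. Vertical lines mark miR-103 (solid blue) and miR-107 (dashed orange), which lie within the bulk of the distribution and coincide from 98 to 161 d (0.27 and 0.28).

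The reads of both members held a larger part with mapping errors than the median porcine miRNA. Reads without error were 79.0, 77.0 and 77.8% of miR-103 in order of age. For miR-107 they were 69.7% (95% Wilson interval 65.9 to 73.3), 70.7% (67.8 to 73.4) and 73.1% (70.1 to 75.8). The median over porcine miRNAs with at least 100 reads was 84.0, 84.5 and 84.0%, and 25 of 149, 36 of 165 and 39 of 158 lay below miR-107, against 50, 50 and 51 below miR-103. The share was lower in miR-107 than in miR-103 by 9.35, 6.29 and 4.72 percentage points (Fisher's exact test within each library, adjusted p = 4.84e-05, 0.00034 and 0.0080). The ambiguous reads enter both values, so that these are not separate sets of reads. Between ages the share differed by at most 3.39 percentage points in either member, and none of 6 comparisons passed the test (adjusted p of 0.49 to 0.69, Fisher's exact test, with none below 0.05 before adjustment). Counting only reads without error left the fold changes at 0.73, 1.22 and 0.89 for miR-103 and 0.99, 1.25 and 1.24 for miR-107.

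The porcine miRNAs with the profile most like that of miR-103 over the 3 libraries were ssc-miR-181d-5p, ssc-miR-181b and ssc-miR-423-5p. Likeness was the distance between log2 normalised reads, each profile centred on its own mean, among 140 miRNAs. The distances were 0.06, 0.07 and 0.07, and ssc-miR-181b, for example, had 2561, 2060 and 2393 normalised reads. For miR-107 they were ssc-miR-27b-3p, ssc-miR-125a and ssc-miR-486, at distances of 0.07, 0.09 and 0.09. The members themselves were less alike, with a distance of 0.31. miR-107 was the 20th nearest to miR-103, and miR-103 the 30th nearest to miR-107.

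The other miRNAs that share AGCAGC near the 5′ end were read in the same libraries. The 5 printed are those with at least 10 reads in every library, with the seed in capitals.
ssc-miR-15a: tAGCAGCAcataatggtttgt
ssc-miR-15b: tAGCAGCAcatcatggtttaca
ssc-miR-16: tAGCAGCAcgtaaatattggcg
ssc-miR-195: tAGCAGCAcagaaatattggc
ssc-miR-497: cAGCAGCAcactgtggtttgt
Their AGCAGC begins 1 base later than in miR-103 and miR-107, so that the seeds differ. From 63 to 98 d, 4 of these 5 were higher and 1 was lower by the exact binomial test. Of all 423 names, 28.8% passed as higher and 24.8% as lower. The median log2 fold change of the 5 was 0.78, against 0.06 over all names. miR-195, which is known to slow the cell cycle, went from 220.4 to 760.6 normalised reads (3.45-fold, exact binomial test, adjusted p = 2.58e-62). miR-16, a known repressor of cyclins, went from 4514 to 8100 (1.79-fold). miR-15b went the other way, from 365.6 to 230.3 (0.63-fold), but to 1.01-fold when scaled to clean reads. miR-103 was lower and miR-107 not distinguishable from no change over the same interval.

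From 98 to 161 d, 0 of the 6 measured members of this list were higher and 2 were lower by the exact binomial test (miR-16 at 0.96-fold and miR-503 at 0.52-fold). Of all 443 names, 20.1% passed as higher and 21.2% as lower. The median log2 fold change was -0.08, against 0.05 over all names. miR-15a had 1022 and 950.2 normalised reads and miR-497 446.3 and 518.8. From 63 to 161 d, 4 of 5 were higher and miR-15b lower, with a median of 0.78 against 0.02 over all 411 names, of which 32.6% passed as higher and 27.5% as lower. miR-424-5p was at 4.5, 15.5 and 3 reads, near the limit of detection. miR-503 had 87 reads at 98 d and 34 at 161 d but no row at 63 d, which allows up to 3 reads.

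**Figure D5:**
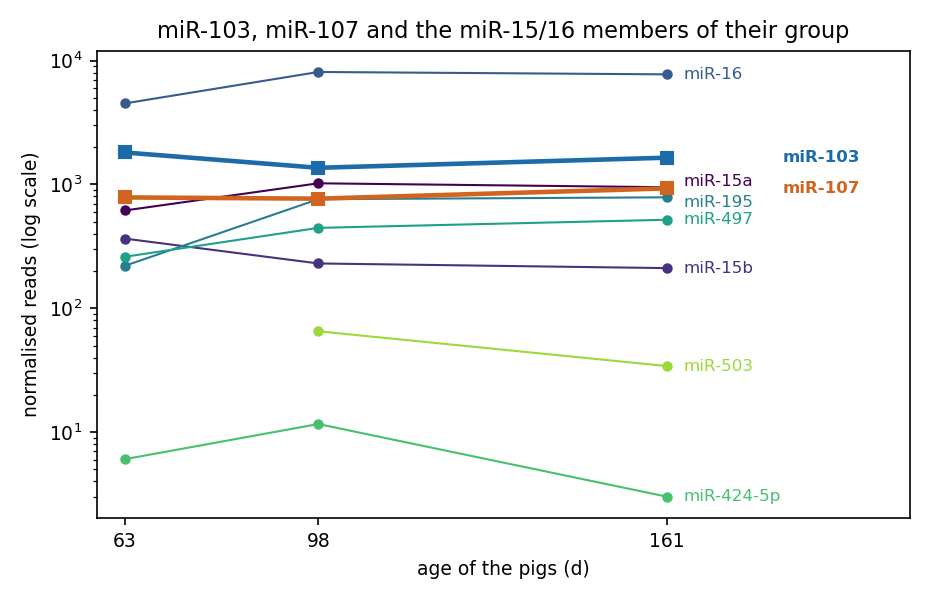
Normalised reads (log scale) against age (d) for miR-103 and miR-107, each counted at 1 hairpin (thick lines), and the 7 listed miRNAs that share their 5′ bases (thin lines), 1 library per age. miR-16, miR-15a, miR-195 and miR-497 were higher at 98 d than at 63 d, miR-103 went from 1813 to 1363, and miR-503 had no reads at 63 d and is drawn from 98 d.

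Among 24 names listed as miRNAs of insulin and lipid metabolism, 21 had reads and 20 at least 10 reads in each pair. From 63 to 98 d, 11 were higher and 7 lower by the exact binomial test, with a median log2 fold change of 0.10, where 28.8% of all names were higher and 24.8% lower. Between 98 and 161 d, 7 were higher and 8 lower (median 0.02), against 20.1 and 21.2% of all names. From 63 to 161 d 9 were higher and 8 lower (median -0.04), against 32.6 and 27.5%. As a list these names had no common direction, but most of the lower calls in each pair were of 1 family, let-7. From 63 to 98 d the lower names were miR-378, let-7a, let-7c, let-7d-3p, let-7d-5p, let-7e and let-7i, while let-7f and let-7g were higher. Outside let-7, the lower names from 63 to 161 d were miR-378 and miR-185. From 98 to 161 d they were miR-122, miR-26a and miR-185. On the CPM scale 1 call of the first pair and 2 of the second turned, and on clean reads 6 and 5. miR-378, which lies in a gene of the mitochondrial regulator PGC-1β, was at 0.53-fold from 63 to 98 d and at 1.11-fold from 98 to 161 d (0.89-fold in CPM). miR-29a, miR-29b and miR-29c, which target collagen genes and are known from insulin resistance, were at 1.79-, 2.11- and 2.08-fold from 63 to 161 d. miR-143-3p, known from fat cell differentiation, was at 3.41-fold. miR-33a, miR-33b and miR-223 had no row.

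Markers of the tissue and of other cells were read in the same libraries. All 6 skeletal muscle miRNAs were present, with a summed level of 442616, 385496 and 535332 normalised reads at 63, 98 and 161 d. Most of this sum was miR-133a-3p, the 1 marker of the 6 that was lower at 98 than at 63 d (0.77-fold, but 1.23-fold on clean reads). The other 5 were higher by the exact binomial test, miR-1 at 2.36-fold and miR-208b at 1.96-fold among them. Of all 423 names, 28.8% passed as higher and 24.8% as lower in this pair. Both erythroid markers (miR-451 and miR-144) summed to 1590, 2705 and 2411, and both arms of the endothelial miR-126 to 11483, 17719 and 15242. The liver miRNA miR-122 was at 14.8, 222.8 and 12.1 normalised reads, and the brain miRNA miR-124a at 157.9, 185.3 and 264.9. The epithelial miRNAs miR-200b, miR-200c and miR-141 had no row. Outside this list, ssc-miR-429 and ssc-miR-205 were read, with log2 fold changes of 1.16 and 0.77 from 63 to 98 d. The list therefore does not show that epithelial miRNAs were absent. The blood, endothelial and liver markers were thus highest in the library of 98 d. With the authors' factors miR-103 was lowest in that library, but in CPM it was lowest at 161 d and on clean reads highest at 98 d. The part of these markers in the result was not tested. In whole muscle, fewer cells of a type and less RNA per cell cannot be told apart.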

How the data were processed

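Small RNA libraries of psoas major muscle, 1 per age, each made from equal amounts of RNA of 6 pigs, were sequenced on an Illumina HiSeq 2000. Per the labels the authors processed the reads with ACGT101-miR v4.2, and the paper names filters against reads that could not be mapped and against other RNA classes, and mapping to miRBase 20.0 and a genome. The deposited expected counts hold every isoform read of a hairpin arm, a read that fits several hairpins being divided between them, and are also split into parts without and with mapping errors. The deposited counts of the representative read and of all undivided reads of a hairpin are whole numbers. In 2 files the header names stand 1 place off their columns, which was corrected.

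A miRNA was counted at the hairpin listed in most libraries, rounded for tests and multiplied by the authors' scaling factors, obtained as the ratio of normalised to raw values in the study's supplementary table. Libraries were compared by an exact conditional binomial test, two-sided, adjusted by Benjamini-Hochberg over all names and predicted arms with a read in the pair, with 95% Clopper-Pearson intervals. A name was called at an adjusted p below 0.05. Ratios of members and error shares were compared by two-sided Fisher's exact tests. Reads were not tagged as molecules, so that intervals cover counting error only. The binomial test was tried on simulated counts with counting error only and with planted changes far larger than those of the members. Such counts cannot show how it behaves with variation between pools of pigs. Named beside the members were the fixed lists, the neighbours in rank and the 3 nearest profiles. The members and lists were chosen with earlier results of these data known. The alternatives were scaling to listed reads (CPM), clean reads, TMM (edgeR 4.0.16) and median of ratios (DESeq2 1.42.0), other hairpin rules, error-free reads, copies, a pseudocount of 1, Fisher's exact test and edgeR with a coefficient of variation of 0.2 assumed between libraries. The count of reads that fit 1 member only was added after the data were seen. Python 3.11.15 with scipy 1.17.1 and R 4.3.3 were used.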

Additional observations from a re-analysis of the deposited data

Results flagged for a closer look

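Reads of the opposite, 5′ arm of the family's hairpins lay outside the comparisons. The arm of ssc-mir-107, listed under the mouse name miR-107-5p, had 5 reads at 98 d and 4 at 161 d, and no row at 63 d. These were 3.75 and 4.02 normalised reads, below the 4.03 that a count of 0 allows in the smaller library of 63 d. In CPM they were 2.07 and 1.78, against a limit of 2.05 at 63 d. The missing row at 63 d therefore does not show a lower level at that age. The 5′ arm of ssc-mir-103-2, under the human name miR-103a-2-5p, had 2 reads at 161 d. The 3′ arm of ssc-mir-107 had 1024.3 and 924.7 divided reads in those libraries.
mmu-miR-107-5p: agcttctttacagtgttgccttg
The difference between ages was not tested.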

How the results depend on the processing

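The direction of miR-103 from 63 to 98 d turned on clean reads (1.20). That of miR-107 in this pair, not called, turned on CPM (1.06), clean reads (1.56), Fisher's exact test against all other reads (1.06) and reads that fit 1 member only (1.03). From 98 to 161 d the direction of miR-103 turned on CPM (0.97), clean reads (0.81) and Fisher's test (0.97), and that of miR-107 likewise (0.97, 0.81 and 0.97). From 63 to 161 d the call of miR-103 was lost on clean reads (0.97) and that of miR-107 on CPM (1.03), TMM (1.12), median of ratios (1.12), copies of the representative read (1.10) and Fisher's test (1.03). With a coefficient of variation of 0.2 assumed between pooled libraries of the same age, every call of a member was lost at unchanged fold changes (0.75 and 0.91 for miR-103 and 1.21 and 1.18 for miR-107, with 1.21 for miR-103 from 98 to 161 d), and adjusted p was between 0.84 and 1. The ratio of the members from 98 to 161 d, not called, turned on reads that fit 1 member only (1.01). Of 72 recomputed fold changes, 50 kept direction and call, but some of these could not differ. The hairpin with most reads had the same counts for both members. The sum over hairpins left miR-107 unchanged, and the pseudocount kept the adjusted p of the main test. Fisher's test in effect repeats the CPM scale. The count of names past 2-fold from 63 to 98 d went to 155 on clean reads, 163 with a minimum of 1 count and 20 with a minimum of 100. From 98 to 161 d it went to 89, 164 and 9, and from 63 to 161 d to 201 and 22 with these minimums. A minimum changes the number of names counted. A change of scale shifts every log2 fold change of a pair by the same amount. On clean reads the median log2 fold change from 63 to 98 d went from 0.06 to 0.74. From 98 to 161 d it went from 0.05 to -0.53. Why the scalings differ was not tested. No paired analysis was possible because each age had 1 library. Sampling 6 pigs into 1 library leaves the variation between animals unmeasured, and no depth of reads replaces it.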
